A study of Mus musculus with 12 samples.

Results

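The genes described here are 9 members of the transforming growth factor β (TGF-β) pathway and its early target genes, namely Tgfb1, Tgfbr1, Tgfbr2, Smad2, Smad3, Smad4, Smad7, Ctgf and Bambi. They were chosen by symbol from the 21705 genes of the deposited table, and all 9 had a mean of at least 10 over the livers, the minimum for testing. The RNA came from 12 livers, 6 of mice given saline and 6 of mice given LNA29. LNA29 is a mixture of locked nucleic acids, short chemically stabilised oligonucleotides that pair with a microRNA and block it, directed against miR-29a and miR-29b/c. All 12 animals were C57BL/6J females of 10 to 12 weeks, injected into the tail vein either with saline or with 20 mg/kg LNA29a and 20 mg/kg LNA29bc. Livers were taken on day 7 after an overnight fast. Because the comparison group received saline and no other oligonucleotide, an effect of any locked nucleic acid and an effect of blocking miR-29 cannot be told apart in these libraries.

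TGF-β is secreted in a latent form, is released by proteases or integrins, and binds a type II receptor (Tgfbr2) that phosphorylates and activates a type I receptor (Tgfbr1). The activated receptor phosphorylates Smad2 and Smad3, which join Smad4 and enter the nucleus to switch on target genes. Among the targets are Smad7 and Bambi, which damp the signal, and Ctgf (connective tissue growth factor), a matrix-associated protein. In liver the pathway is best known for driving stellate cells to deposit collagen in fibrosis, and miR-29 is known for repressing collagens and other matrix genes. The question for these genes was therefore whether blocking miR-29 was accompanied by altered transcripts of the pathway that drives matrix production, or of the matrix genes without it.

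The sequences that link the oligonucleotide to its targets are shown first. The 3 mature miR-29 forms share bases 2 to 8, the seed, which is in capitals, so that they read the same site on a messenger RNA. In the RefSeq annotation of GRCm38.p6, miR-29a lies at chr6:31062673-31062694 on the minus strand, miR-29b is encoded at chr6:31063025-31063047 on the minus strand and again at chr1:195037091-195037113 on the plus strand, and miR-29c lies at chr1:195037600-195037621 on the plus strand.
miR-29a-3p: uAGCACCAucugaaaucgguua
miR-29b-3p: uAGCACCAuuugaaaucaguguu
miR-29c-3p: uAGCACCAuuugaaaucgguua

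The match to this seed, TGGTGCT read on the sense strand of the transcript, was searched in the 3′ UTR of the first-ranked protein-coding transcript of each gene (GENCODE release M21, GRCm38). Of 19396 genes with such a 3′ UTR, 2452 (12.6%) held the match, and 548 (2.83%) held it followed by A, the 8-base form TGGTGCTA. None of the 9 TGF-β signalling genes did. Ctgf (listed as Ccn2 in that annotation) has the 8 bases at chr10:24597128-24597134 on the plus strand, counting the 7 seed bases, but there they lie in the intron after exon 4 of the 5 exons of the first-ranked transcript. They count as 3′ UTR only in a second Ctgf transcript of 4 exons, in which they start at base 53 of 1608. A match is a description of letters and does not show that a site is used. Shorter or shifted matches to the seed were not searched.

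The match was present in 8 of 10 matrix genes used as reference targets of miR-29, and in 12 of 75 other genes of the TGF-β pathway, of which Smad5, a Smad of the related BMP branch, and Tpm1, a tropomyosin, had the 8-base form. Stretches of 30 bases around the match in 3 reference targets and in these 2 pathway genes are given for comparison, with the match in capitals. They lie at chr11:94952538-94952544 on the plus strand in exon 51 of Col1a1, chr1:45348982-45348988 on the plus strand in exon 51 of Col3a1, chr5:134703737-134703743 on the minus strand in exon 37 of Eln, chr13:56739847-56739853 on the plus strand in exon 7 of Smad5 and chr9:67022984-67022990 on the minus strand in exon 9 of Tpm1.
Col1a1: gtgggaaggaatttcTGGTGCTatagaagc
Col3a1: ttcaaaatgtctcaaTGGTGCTataataaa
Eln: cgacctcatcaacgtTGGTGCTactgcttg
Smad5: catacccagcttccgTGGTGCTaaggatca
Tpm1: caatcgggtgcggatTGGTGCTaatttaaa

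In limma, 0 of the 9 TGF-β signalling genes had an adjusted p under 0.05 between LNA29 and saline livers. Across all 12486 tested genes 20 passed (0.160%), 9 higher (0.0721%) and 11 lower (0.0881%) in LNA29 livers, so a count of 0 among 9 is near this background and is not a result about the 9 genes. By the thresholds of the study, a ratio of means of at least 1.5 with an unadjusted 1-tailed p, 0 of the 9 passed as well, against 5.84% of 15122 genes with reads. The split of the calls depended on scaling, with 6 higher and 4 lower with the livers brought to a common median and 10 higher and 5 lower after scaling by the median of ratios. The number of calls also depended on single livers, being between 1 and 29 with any 1 left out. It was 217 with values beyond 1.5 SD of their group mean left out, which by construction narrows the spread within groups and lowers p-values. Again 0 of the 9 passed in each. At an unadjusted limma p under 0.05, 0 of the 9 passed, against 988 of all tested genes (7.91%). The log2 fold changes of the 9 ran from -0.42 to 0.42 with a median of -0.03, 4 above 0 and 5 below, while the median of all tested genes was -0.09.

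These were genes of low depth. The deposited value is a signal scaled so that, among genes with reads, the upper quartile is 1000 in 11 livers and 998 in saline replicate 49, and 1 read was worth between 9.80 and 24.4 of that unit. Over 9 genes and 12 livers the 108 values rested on between 1 and 70 reads with a median of 13, and 46 of them on 10 reads or fewer. The libraries held between 7696080 and 19062438 reads on genes. The median width of the 95% interval of a log2 fold change was 1.43 for the 9 genes and also 1.43 for the 4809 tested genes with means in the same range, so that small changes in these genes could not be resolved.

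**Figure D1:**
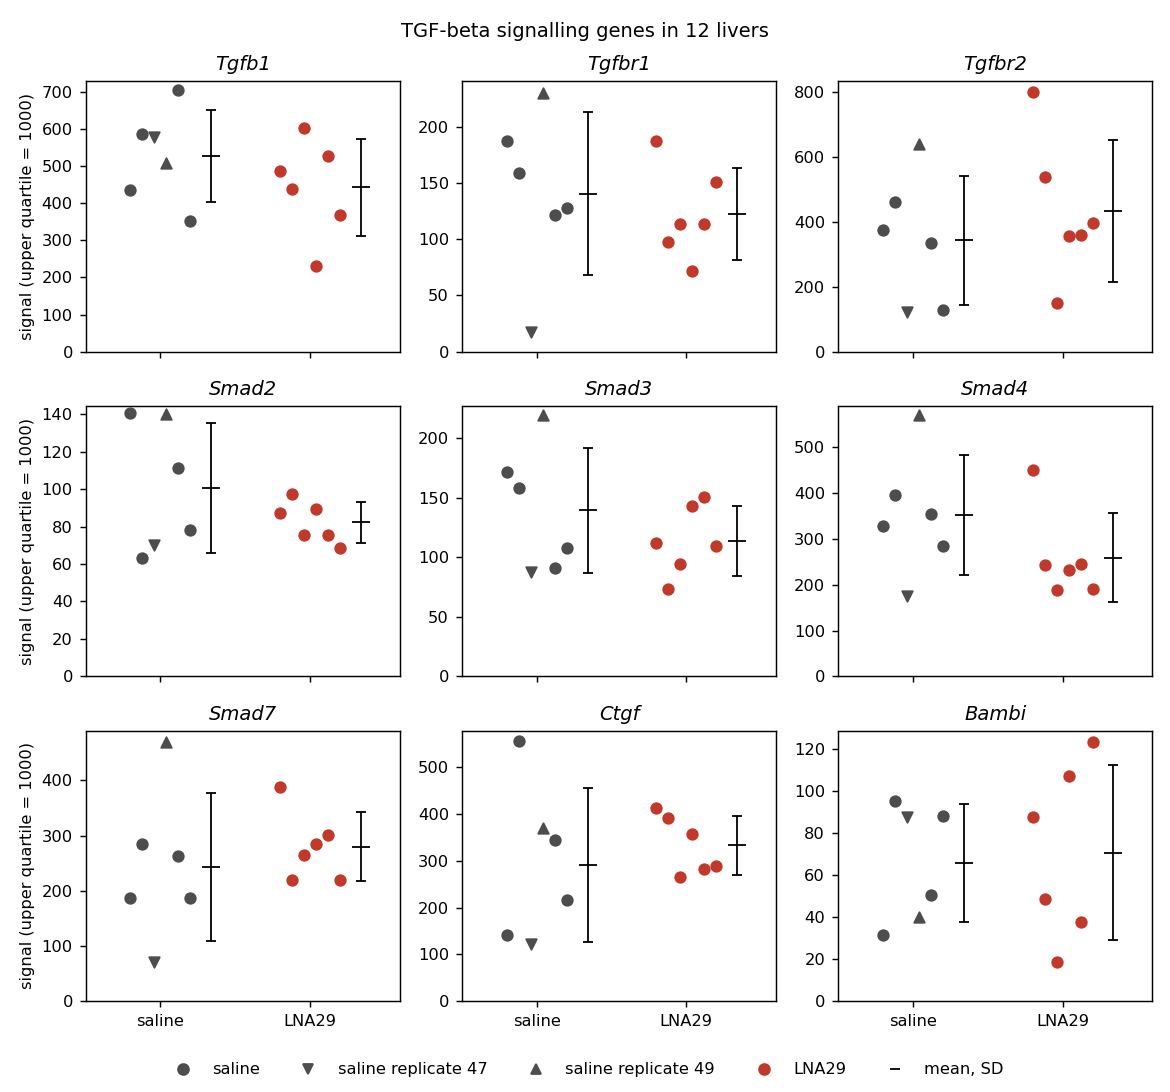
Signal of the 9 TGF-β signalling genes in each of 12 livers (y axis, deposited unit, scaled to an upper quartile of 1000 or, in saline replicate 49, 998; linear axis from 0), with saline in grey and LNA29 in red, and the mean and SD of 6 livers beside the points. Saline replicates 47 and 49 have their own symbols. LNA29 values overlap saline values in every panel, and Tgfbr1 ranges from 17.5 in saline replicate 47 to 230 in saline replicate 49.

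The ligand was the most abundant of the 9 per length of transcript. Tgfb1 encodes TGF-β1, the main isoform of fibrotic liver, and lies at chr7:25687002-25705077 on the plus strand with 7 exons (GRCm38). Its signal was lowest at 353, median 544 and highest at 707 in saline livers, and lowest at 232, median 463 and highest at 604 in LNA29 livers. LNA29 replicate 50 lay below all saline livers, the other 5 LNA29 livers lay within the saline range, and 1 of the 6 LNA29 livers exceeded the saline median. The log2 fold change was -0.28 (95% interval -0.79 to 0.23, limma adjusted p = 0.848), with a two-sided exact permutation p of 0.303 over the 924 divisions of the 12 livers. As a fold the interval ran from 0.577 to 1.17, which does not reach a doubling. Without LNA29 replicate 50 the log2 fold change was -0.11, and with array weights it was -0.45.

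Tgfbr1, the type I receptor kinase (chr4:47353222-47414931, plus strand, 9 exons), had the widest saline range in proportion. Its signal was 17.5 at the lowest, 143 at the median and 230 at the highest in saline livers, and 71.4, 113 and 188 in LNA29 livers. All LNA29 livers fell within the saline range, whose low end was a single read in saline replicate 47 (exact Poisson 95% interval 0.0253 to 5.57 reads, counting error only) and whose high end was 23 reads in saline replicate 49. The log2 fold change of 0.07 (95% interval -1.01 to 1.14, limma adjusted p = 0.987) turned to -0.45 without saline replicate 47, with a limma adjusted p of 0.720.

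Tgfbr2, the type II receptor that binds the ligand first (chr9:116088929-116175360, minus strand, 7 exons), had a signal of 123 at the lowest, 354 at the median and 640 at the highest in saline livers. In LNA29 livers the lowest was 151, the median 378 and the highest 800. LNA29 replicate 44 exceeded all saline livers and 5 of 6 LNA29 livers lay within their range. On the log2 scale the fold change was 0.42 (95% interval -0.49 to 1.32, limma adjusted p = 0.877, exact permutation p = 0.429), an interval that reaches from 0.714-fold to 2.50-fold. It was 0.17 without saline replicate 47 and 0.69 without LNA29 replicate 48, the lowest liver of each group, and lay between these values with any other liver left out.

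The receptor-regulated Smads, Smad2 and Smad3, are the direct substrates of Tgfbr1. Smad2 (chr18:76241580-76310963, plus strand, 11 exons) had a signal of 63.5, 94.8 and 141 at the lowest, median and highest in saline livers and of 68.5, 81.5 and 97.6 in LNA29 livers. Smad3 (chr9:63646767-63757994, minus strand, 9 exons) had 87.7, 133 and 220 in saline livers and 73.2, 111 and 151 in LNA29 livers. The LNA29 livers lay within the saline range for Smad2, and for Smad3 5 did and replicate 46 lay below it. Log2 fold changes were -0.23 for Smad2 (95% interval -0.94 to 0.49, limma adjusted p = 0.927) and -0.25 for Smad3 (95% interval -0.95 to 0.45, limma adjusted p = 0.918). Single livers moved both, Smad2 to between -0.34 without saline replicate 45 and -0.12 without saline replicate 43 or 49. Smad3 was -0.36 without saline replicate 47, -0.10 without saline replicate 49, -0.13 without LNA29 replicate 46 and -0.03 with array weights.

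Smad4, the shared partner that carries the Smads of both the TGF-β and the BMP branch into the nucleus (chr18:73639009-73703780, minus strand, 12 exons), had the smallest p of the 9 genes. Its signal was 175 at the lowest, 341 at the median and 570 at the highest in saline livers, and 189, 238 and 450 in LNA29 livers. Of the LNA29 livers 5 were below the saline median, and replicate 44 alone stood above it, while all 6 lay within the saline range. Smad4 had a log2 fold change of -0.42 (95% interval -1.03 to 0.19, limma adjusted p = 0.793) and a two-sided exact permutation p of 0.182. Leaving out saline replicate 47, the lowest saline liver, gave -0.60 with a limma adjusted p of 0.571, the one setting in which any of the 9 genes came under an unadjusted p of 0.05. Leaving out saline replicate 49, the highest, gave -0.26 with a limma adjusted p of 0.879.

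The inhibitors are themselves induced by the pathway. Smad7, which blocks the type I receptor and recruits ubiquitin ligases to it (chr18:75367529-75395935, plus strand, 4 exons), had a signal of 70.2, 225 and 470 at the lowest, median and highest in saline livers and of 219, 275 and 388 in LNA29 livers. The LNA29 livers lay inside the saline range, and 4 of 6 exceeded the saline median. The log2 fold change was 0.38 (95% interval -0.37 to 1.13, limma adjusted p = 0.867) and was 0.07 without saline replicate 47, where Smad7 had 4 reads, and 0.61 without saline replicate 49. Bambi, a receptor-like protein without a kinase domain (chr18:3507923-3516404, plus strand, 3 exons), had the fewest reads, between 1 and 9 in every liver. Its signal was 31.2, 69.1 and 95.2 in saline livers and 18.9, 68.1 and 123 in LNA29 livers, and the log2 fold change of -0.03 (95% interval -1.11 to 1.05, limma adjusted p = 0.992) had no stable sign, being 0.04 after scaling by the median of ratios.

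Ctgf is induced by TGF-β in several cell types and is a common transcript readout of the pathway. The gene (chr10:24595442-24598678, plus strand, 5 exons) had a signal of 123 at the lowest, 280 at the median and 556 at the highest in saline livers and of 264, 322 and 412 in LNA29 livers. LNA29 livers were the narrower group (mean 332 ± 62.4 against 291 ± 165, SD, n = 6 each), and all 6 lay inside the saline range, 5 of them above its median. Ctgf had a log2 fold change of 0.37 (95% interval -0.33 to 1.07, limma adjusted p = 0.856, exact permutation p = 0.327). It was above 0 in all 22 alternatives run, between 0.16 and 0.60, and passed the threshold in none of them.

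Levels of different genes were compared per kilobase of the first-ranked transcript, as signal per kilobase averaged over 12 livers. Tgfb1 was highest at 224 ± 59.5 (SD, n = 12), followed by Ctgf at 130 ± 50.3, Tgfbr2 at 112 ± 58.8, Smad4 at 90.1 ± 35.5 and Smad7 at 61.2 ± 23.7. The lower end was held by Smad3 at 24.9 ± 8.42, Tgfbr1 at 22.8 ± 9.89, Bambi at 13.4 ± 6.68 and Smad2 at 11.3 ± 3.26, also in signal per kilobase. Of the 8 steps between neighbours in this order, 3 exceeded 1 SD of their per-liver log2 ratio, namely Tgfb1 over Ctgf, Smad4 over Smad7 and Smad7 over Smad3. The other 5 steps were within that spread. Tgfb1 was 19.8 times Smad2 on this scale and higher than Smad2 in all 12 livers, though the figure depends on which transcript length is assigned.

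Several of the 9 genes were high or low in the same livers. Saline replicate 49 held the highest saline value for 5 of the 9 (Tgfbr1, Tgfbr2, Smad3, Smad4 and Smad7), against 30.9% of all tested genes, and saline replicate 47 held the lowest for 6 (the same 5 genes and Ctgf), against 28.3% of all tested genes. Among LNA29 livers, replicate 44 was highest for 5 of the 9, against 23.5% of all tested genes, and replicate 48 lowest for 4, against 27.9%. Tgfb1 and Bambi lay above their mean of 12 livers in saline replicate 47. The livers also differed in a trend with transcript length. Across the tested genes with a known length (97.2% of 12486), Spearman's rho between a liver's log2 deviation and transcript length was 0.49 in saline replicate 49 and -0.29 in saline replicate 47, and 0.26 in LNA29 replicate 44 and -0.24 in LNA29 replicate 48. It was 0.27 in saline replicate 43, which was highest in its group for only 1 of the 9 genes. These are correlations across genes, which are not independent replicates. Saline replicate 49 also differed in albumin, which took 35.7% of its reads against 43.6% to 46.9% in the other 11 livers. The part of the length trend in the values of the 9 genes was not tested beyond a fit with the trend as a covariate, chosen after the data were seen, in which 125 of all tested genes and 0 of the 9 passed.

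**Figure D2:**
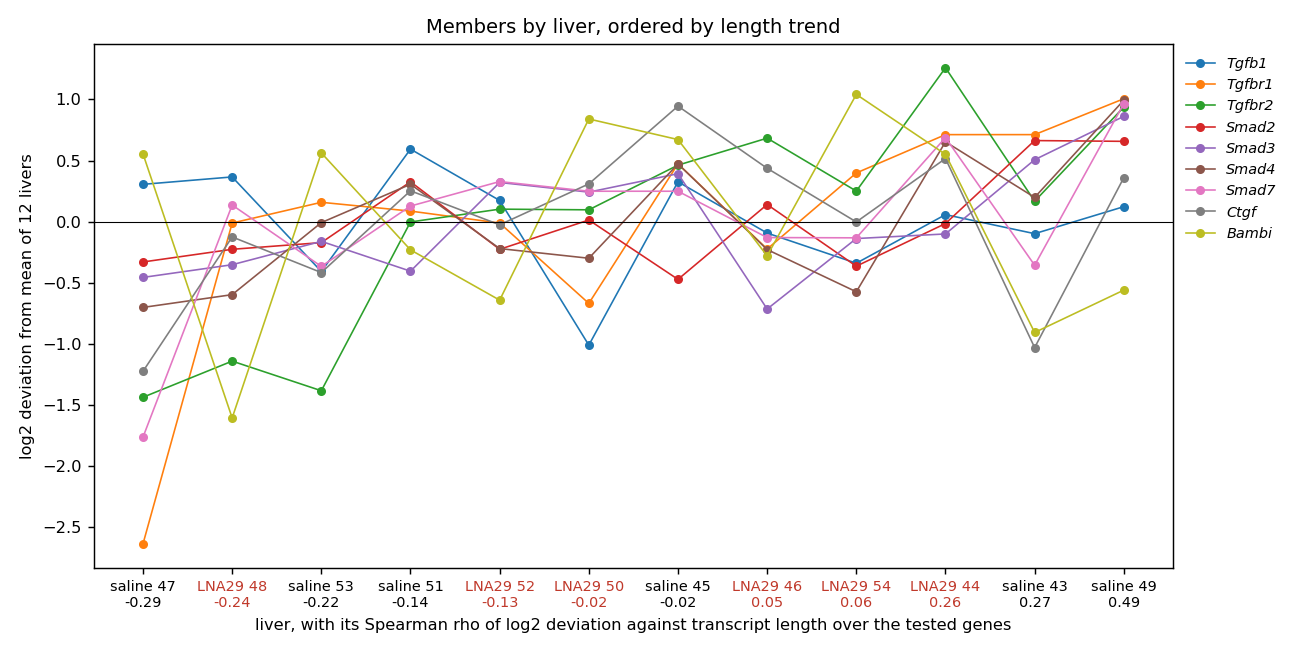
Log2 deviation of each of the 9 genes from its mean over 12 livers (y axis), with livers on the x axis ordered by Spearman's rho of log2 deviation against transcript length over the tested genes, printed under each liver (saline black, LNA29 red). Most genes are low in saline replicate 47 at the left (rho -0.29) and high in saline replicate 49 at the right (rho 0.49), while Tgfb1 and Bambi are above their means in saline replicate 47 and Bambi is below its mean in saline replicate 49.

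The treatment itself was checked with matrix genes reported as miR-29 targets, since microRNAs are not captured in polyadenylated RNA. Of 10 such genes, 4 were higher in LNA29 livers at a limma adjusted p under 0.05 and 7 at an unadjusted p under 0.05, with none lower. Among all tested genes 0.0721% were higher at a limma adjusted p under 0.05 and 1.95% at an unadjusted limma p under 0.05. The list was chosen with earlier results of these data known, so its counts are not an independent check. Sparc, a collagen-binding glycoprotein, had a signal of 7252 ± 1384 in LNA29 against 2513 ± 238 in saline livers (mean ± SD of 6), and its log2 fold change was 1.51 (limma adjusted p = 4.62e-05). Sparc and Col1a2 are the 2 reference targets without TGGTGCT in the 3′ UTR searched. Eln (elastin) had a log2 fold change of 1.93 (limma adjusted p = 0.0224), Col3a1 of 1.48 (limma adjusted p = 0.0438) and Col4a2 of 0.80 (limma adjusted p = 0.0438), and for these 4 genes all 6 LNA29 livers lay above all saline livers. Not passing after adjustment were Col1a1 at 0.70, Col1a2 at 0.62, Col4a1 at 0.60, Lamc1 at 0.45 and Col5a2 at 0.00, and Fbn1 rested on 1 to 3 reads in saline and 2 to 9 reads in LNA29 livers. The count of 4 depended on single livers, being between 1 and 3 when any 1 of the 12 was left out.

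Whether Ctgf moved less than the matrix genes was tested directly, as the difference between the log2 changes of each reference target and Ctgf in the same livers. The change of Eln exceeded that of Ctgf by 1.56, of Sparc by 1.14 and of Col3a1 by 1.11 on the log2 scale. For Fbn1, with 1 to 3 reads in saline livers, the difference was 1.15 (exact permutation p = 0.0498, 0.124 after adjustment), and for Col5a2 it was -0.37. For Eln, Sparc and Col3a1 the two-sided exact permutation p-values were 0.0152, 0.0195 and 0.0325, and after Benjamini-Hochberg adjustment over the 10 comparisons the exact permutation p-values became 0.0974, 0.0974 and 0.108. None of the 10 differences passed after adjustment. Ctgf and the matrix genes were therefore not separated by this test, although 4 of the latter passed in limma and Ctgf did not.

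**Figure D3:**
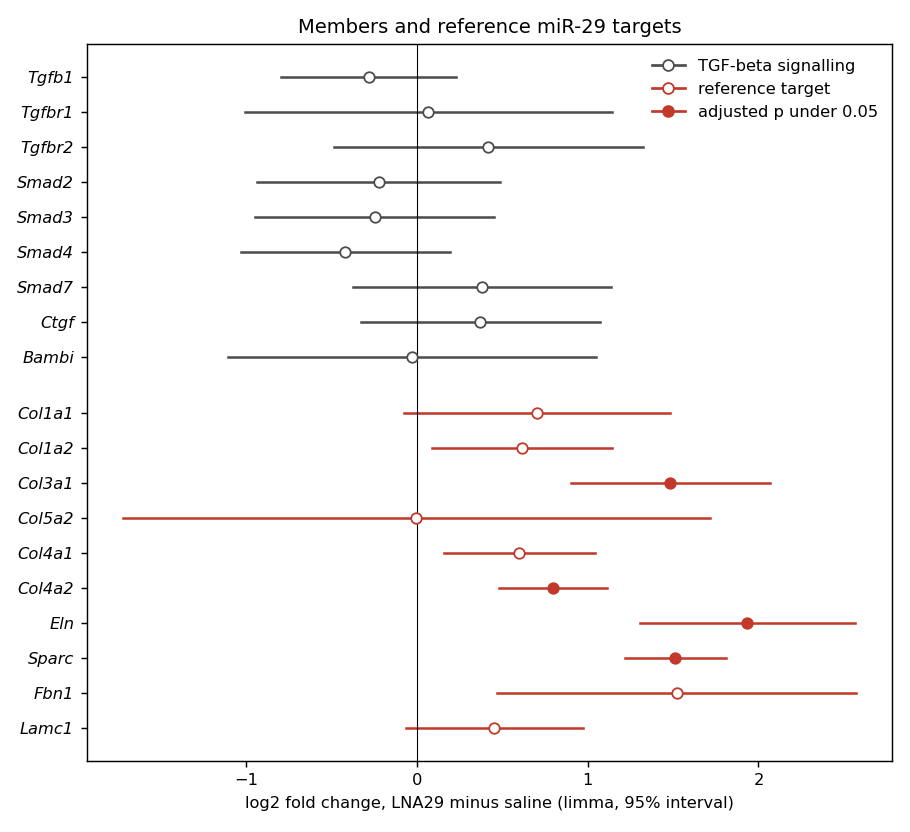
Log2 fold change of LNA29 against saline livers (x axis) with its 95% limma interval for the 9 TGF-β signalling genes (grey) and 10 reference miR-29 targets (red), 6 livers in each group; filled points have an adjusted p under 0.05. All 9 grey intervals include 0, and the filled points are Col3a1, Col4a2, Eln and Sparc.

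Other genes of the pathway were taken from lists arranged by role, 75 genes of which 67 had a mean of at least 10. None passed limma at an adjusted p under 0.05, and 4 (5.97%) had an unadjusted limma p under 0.05, 1 higher and 3 lower, against 1.95% higher and 5.97% lower among all tested genes. Their median log2 fold change was -0.10, close to that of all tested genes. Among the 12 pathway genes with a miR-29 seed match none had an unadjusted limma p under 0.05, and their median log2 fold change was -0.05. Of all 1725 tested genes with the match, 144 (8.35%) had an unadjusted limma p under 0.05, 77 higher and 67 lower. Their median log2 fold change was -0.04, and 45.8% of them had a log2 fold change above 0. Of 10339 tested genes without the match, 808 (7.82%) had an unadjusted limma p under 0.05, 153 higher and 655 lower. The median log2 fold change of genes without the match was -0.10, and 37.2% of them had one above 0. The count of 0 among 12 is near the pooled share of genes with the match and is not a result about the pathway genes with a match.

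Among ligands and the proteins that hold them latent, 10 of 12 listed genes were measured, with 0 higher and 2 lower at an unadjusted limma p under 0.05. Ltbp3, a latent TGF-β binding protein, had a median of 98.1 in saline and 48.8 in LNA29 livers, and 4 of 6 LNA29 livers lay below all saline livers (log2 fold change -1.18, limma adjusted p = 0.513). Tgfb3, a second TGF-β isoform, rested on 1 to 6 reads in saline and 0 to 3 in LNA29 livers (limma adjusted p = 0.631). Thbs1, a platelet and matrix protein that can activate latent TGF-β, had at most 3 reads in any liver, so no fold is given.

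Receptors and co-receptors comprised 9 genes, with 0 passing in either direction. Eng (endoglin), an endothelial co-receptor, was the best measured of those named, with 200 to 407 reads in saline and 107 to 239 in LNA29 livers. Its signal was 3493 ± 480 in saline and 2881 ± 404 in LNA29 livers (SD, n = 6 each), and none of the LNA29 livers exceeded the saline median. The log2 fold change was -0.28 (95% interval -0.57 to 0.01, limma adjusted p = 0.653, exact permutation p = 0.0390). Acvrl1, an endothelial type I receptor, had -1.39 with an interval from -3.06 to 0.28 (limma adjusted p = 0.726, exact permutation p = 0.0411). For Acvrl1 4 of 6 LNA29 livers lay below all saline livers, and LNA29 replicate 46, the library with the fewest reads on genes, had no read. Acvr1b, an activin receptor, had -0.87 with an interval from -2.11 to 0.37.

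Of 9 Smads and adaptors 8 were measured and 0 passed. The inhibitory Smad6 had a log2 fold change of -0.67 (95% interval -1.40 to 0.06, limma adjusted p = 0.683), with 4 of 6 LNA29 livers below the saline range and replicate 44 above it. Dab2, an endocytic adaptor that carries the 7-base match, had -0.63, and Zfyve9, which anchors Smads at endosomes, had -0.41, both with intervals that include 0.

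All 12 inhibitors and turnover genes were measured, 1 of them higher at an unadjusted limma p under 0.05. This was Tgif1, a nuclear corepressor of Smad2 and Smad3, with a signal of 152 ± 65.6 in saline and 254 ± 77.8 in LNA29 livers (SD, n = 6 each) and 4 of 6 LNA29 livers above all saline livers. Its log2 fold change was 0.79 (as a fold, 95% interval 1.05 to 2.83, limma adjusted p = 0.570). Ski, a corepressor with a 7-base match, had -0.16 and Fkbp1a, which keeps the type I receptor inactive, had 0.14.

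Of 20 early target genes 18 were measured, with 0 higher and 1 lower. The lower was Fn1 (fibronectin), which hepatocytes also secrete into plasma, with a signal of 32882 ± 10462 in saline and 21620 ± 6833 in LNA29 livers (SD, n = 6 each), so that 4 of 6 LNA29 livers lay below all saline livers. Its log2 fold change was -0.62 (95% interval -1.12 to -0.11, limma adjusted p = 0.487, exact permutation p = 0.0498). Tgm2, a transglutaminase that crosslinks matrix, had -0.24 with an interval from -0.54 to 0.06.

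The list of activin and BMP ligands and their antagonists comprised 13 genes, of which 10 were measured and 0 passed. It included Hamp (hepcidin), which is neither a ligand nor an antagonist. The hepatocyte activins Inhbc and Inhbe had log2 fold changes of -0.35 (95% interval -0.77 to 0.07) and -0.44 (95% interval -0.97 to 0.08). Fst (follistatin), which binds activins, had 1.45 (95% interval -0.13 to 3.02), with 4 of 6 LNA29 livers above all saline livers but no read in saline replicate 47.

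**Figure D4:**
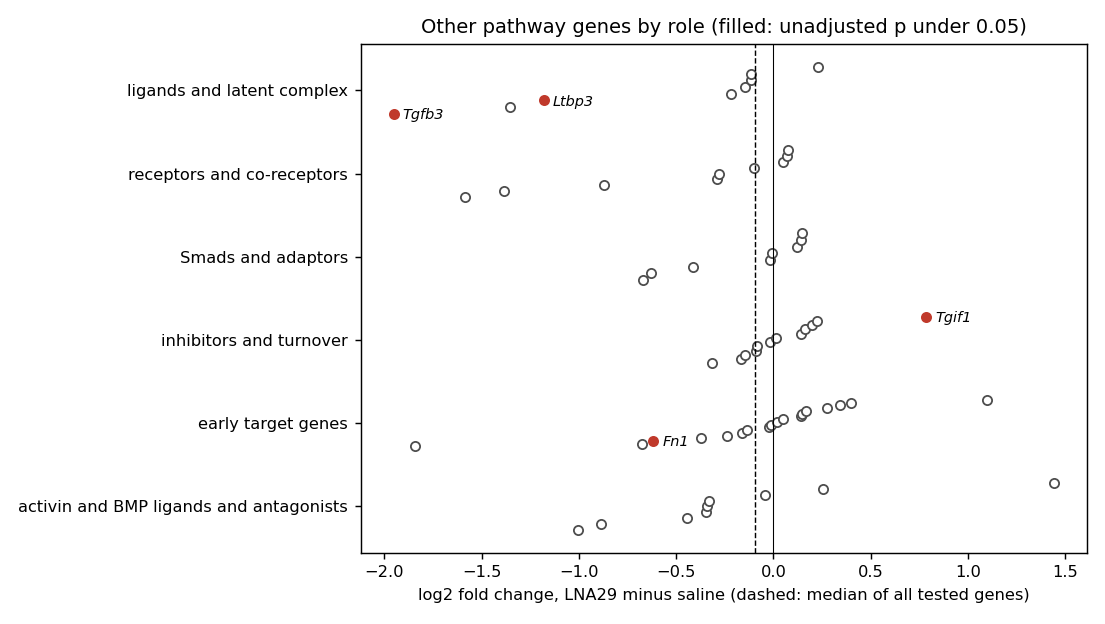
Log2 fold change of LNA29 against saline livers (x axis) for 64 other genes of the pathway, grouped by role, with the 3 measured genes of at most 3 reads in every liver left out. Filled points have an unadjusted limma p under 0.05 (Tgfb3, Ltbp3, Tgif1 and Fn1) and the dashed line marks the median of all tested genes at -0.09.

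Bulk liver RNA mixes cell types, so that fewer cells of a type and less RNA per cell cannot be told apart for any of these genes. Stellate cells, endothelium and macrophages hold much of the pathway in liver. Of 10 stellate cell markers all were measured and 1 had an unadjusted limma p under 0.05, Ngfr, which was lower (log2 fold change -0.78, limma adjusted p = 0.487). Among all tested genes 7.91% had an unadjusted limma p under 0.05, 1.95% higher and 5.97% lower. A count of 0 or 1 in marker lists this short is therefore not a result about the list. The most abundant of these markers was Ecm1 and the summed signal was 17640 to 24474 with a median of 21724 in saline livers and 17768 to 22589 with a median of 19750 in LNA29 livers. Ecm1 alone had a median of 16120.5 in saline and 14038.8 in LNA29 livers, so the sum mostly follows Ecm1. In saline replicate 49, which had the lowest saline sum, Ecm1 and Des were at their saline lowest. Lrat, Reln, Dcn and Rgs5 were at their saline highest in that liver. The 8 endothelial markers, led by Clec4g, summed to between 5211 and 6220 in saline and between 4585 and 6342 in LNA29 livers, with 0 passing. Of the LNA29 sums 4 of 6 lay below all saline sums, with medians of 4862 in LNA29 and 5746 in saline livers. The 8 macrophage markers, led by Clec4f, summed to between 7859 and 11794 in saline and between 6857 and 15986 in LNA29 livers, and Marco, a scavenger receptor, was the 1 with an unadjusted limma p under 0.05 (log2 fold change 1.08, limma adjusted p = 0.391). The other 7 macrophage markers had log2 fold changes below 0, from -0.52 for Vsig4 to -0.03 for Cd68, and the median of the 8 was -0.23.

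The 8 hepatocyte markers, led by Alb, and the 5 bile duct markers, led by Spp1, had 0 genes passing. Hepatocyte markers summed to 33274000 in saline replicate 49, to between 76620000 and 111686000 in the other saline livers and to between 80991200 and 96374900 in LNA29 livers. Most of this sum was Alb, at 29304000 in saline replicate 49. Apoa1, Ttr, Serpina1a and Cyp2e1 were also at their saline lowest in that liver. Hnf4a and Tat were not, and Cps1 was at its saline highest there, at 68650. Bile duct markers summed to between 603 and 891 in saline and between 415 and 868 in LNA29 livers. Of 6 lymphocyte and platelet markers 5 were measured, and the list, led by Cd79a, summed to between 349 and 860 in saline and between 329 and 642 in LNA29 livers. The platelet marker Pf4 had 0 to 3 reads in saline livers, with 4 livers at 0, and 1 to 4 reads in LNA29 livers (exact permutation p = 0.00866, limma adjusted p = 0.243). It was the 1 marker of this list with an unadjusted limma p under 0.05, against 7.91% of all tested genes. Ppbp, also a platelet marker, had too low a mean to be tested, with no read in 2 of 6 saline and 5 of 6 LNA29 livers and at most 2 reads in any liver. No marker of any list was at 0 in all livers, and the part of cell composition in the values of the 9 genes was not tested.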

How the data were processed

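Livers of 6 saline-treated and 6 LNA29-treated mice were sequenced as polyadenylated RNA, and groups were taken from the sample labels. The authors mapped single reads with MapSplice2 and assigned them to genes with RSEM (versions not given in the sources used here), with mm9 named as the genome build in the submitters' processing notes. The deposited table holds a signal per gene and liver, which the authors scaled to an upper quartile of 1000 among genes with reads (998 in saline replicate 49), with 1 for a gene without reads. Its columns of group means, fold changes and p-values were not used, nor were 2 unnamed columns of values.

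Divided by the worth of 1 read, between 92.2% and 93.8% of a liver's values were whole to within 0.02, and all 108 values of the 9 genes were. Reads are given only as a measure of depth, since the unit check did not accept whole reads in every column. Tests that need counts were not run.

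Genes were tested on log2(value + 1) in limma 3.58.1 under R 4.3.3, with its mean-variance trend. The 12486 genes with means of 10 or more were tested, p-values were adjusted over all of them by Benjamini-Hochberg, and the threshold was 0.05. On this scale a liver without reads for a gene weighs heavily in its fold change. Single genes also had an exact permutation test, two-sided, over all 924 divisions of the livers, whose smallest p is 0.00216. The code was tested on simulated data. Transcripts were those that APPRIS ranks first in GENCODE release M21 (GRCm38), matched by Entrez identifier, which is a later build than that of the authors. Python 3.11.15, numpy 2.4.6, scipy 1.17.1 and pandas 2.3.3 served the other steps.

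The text names the 9 genes, every reference target and, of each role list, the 3 measured genes with the smallest limma p. Of the early target genes so chosen, 1 is not reported here. Smad5 and Tpm1 are named for their 8-base match, and Hamp as a listed gene outside the name of its list. No gene of the 9 reached the mean of 1000 set for naming correlated genes. Markers named in the text and the match in the Ctgf intron were chosen after their values were seen. The members and lists were chosen with earlier results of these data known. Alternatives were pseudocounts of 0.1 and 10, other filters, a common median, array weights, values beyond 1.5 SD left out, each liver left out, and the thresholds of the study (a ratio of means of 1.5 or more, and a 1-tailed p, unadjusted, of 0.05 or less). Chosen after the data were seen were a length-trend covariate, scaling by the median of ratios, leaving out saline replicates 47 and 49 together, and the comparison of Ctgf with the reference targets.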

Additional observations from a re-analysis of the deposited data

Results flagged for a closer look

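Each of 37 named genes was examined in both groups of 6 livers, 74 groups in all, for a liver that stood apart by Dixon's ratio of its gap to the next liver over the group's range on the log2 scale. With normally distributed values chance flags about 1 in 20 groups, a rate that need not hold for genes with few reads or none. In all, 5 values were found. For Tgfbr1 the value of 17.5 in saline replicate 47, a single read, lay far below the next saline liver at 121. For Smad4 the value of 450 in LNA29 replicate 44 (36 reads) lay above the next LNA29 liver at 245. Acvrl1 was at 186 in saline replicate 53 (19 reads), above the next saline liver at 141, and at 1 in LNA29 replicate 46, which had no read, below the next LNA29 liver at 68.5. Fst was at 1 in saline replicate 47, which had no read, below the next saline liver at 30.3. The causes were not tested.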

How the results depend on the processing

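The 9 TGF-β signalling genes stayed above the adjusted threshold in all 22 alternatives with a limma fit, with a lowest limma adjusted p of 0.305 (Tgfbr1 with values beyond 1.5 SD left out), and 0 of them met the thresholds of the study. Of 196 log2 fold changes 181 kept their sign and 15 did not, all of Tgfbr1 and Bambi. Tgfbr1, 0.07 as reported, was -0.029 with array weights, -0.59 with values beyond 1.5 SD left out and -0.32 without saline replicates 47 and 49, and ranged from -0.45 to 0.27 with each liver left out in turn. Bambi, -0.03 as reported, was 0.0142 after a shift to a common median, 0.17 with array weights and 0.042 after scaling by the median of ratios, and ranged from -0.24 to 0.29 with each liver left out. The number of the 9 with an unadjusted limma p under 0.05 ranged from 0 to 1 with each liver left out. Under a minimum mean of 100, Smad2 and Bambi were not tested.

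Genes called over the whole table, 20 as reported, numbered 10 after a shift to a common median, 58 with array weights, 217 with values beyond 1.5 SD left out, 125 with the length-trend covariate, 2 without saline replicates 47 and 49, 883 by the thresholds of the study, and 1 to 29 with each liver left out. Pathway genes with an unadjusted limma p under 0.05, 4 as reported, numbered 2 with a minimum mean of 100, 7 with array weights, 9 with values beyond 1.5 SD left out, 8 with the length-trend covariate, and 2 to 7 with each liver left out. Reference targets called, 4 as reported, numbered 2 without saline replicates 47 and 49 and 1 to 3 with each liver left out. The cause was not tested, except that leaving out livers or raising the minimum mean leaves fewer data. Planned count-based tests and TMM scaling were not run. No paired analysis was possible because the groups share no replicate numbers.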

Other observations

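By the thresholds of the study, 5 of the 70 other pathway genes with reads in any liver passed (7.14%), against 5.84% of 15122 genes with reads in any liver. Fst and Tgif1 were higher in LNA29 livers, and Fn1, Acvrl1 and Ltbp3 were lower. These names follow from their values and were not chosen beforehand. After adjustment in limma all 5 stayed above 0.05.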
